A study of Mus musculus with 11 samples.

Results

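Cyclins and the cyclin-dependent kinases that they activate were followed in the aortic valves of wild type mice, 48 hours after surgery in which a wire had damaged the valve endothelium or after sham surgery. The 10 genes were taken by symbol from the deposited count table of 46983 genes. They were the D-type cyclins Ccnd1, Ccnd2 and Ccnd3, the E-type cyclins Ccne1 and Ccne2 with their kinase Cdk2, cyclin A2 (Ccna2), and the mitotic cyclins Ccnb1 and Ccnb2 with their kinase Cdk1. All 10 passed the filter on low counts, among 19366 genes tested. Aging injured valves (16 to 18 months old, wire injury) came from 2 mice, aging sham valves (16 to 18 months, sham surgery) from 3, young injured valves (3 to 4 months, wire injury) from 3 and young sham valves (3 to 4 months, sham surgery) from 3. Each of the 11 libraries held the valve of 1 mouse, and the valves of every group had been operated on. In such whole tissue, fewer cells of a type and less RNA per cell cannot be told apart.

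A cell passes from one phase of its cycle to the next when a kinase binds the cyclin of that phase. D-type cyclins answer growth signals in G1 and, with Cdk4 or Cdk6, begin to inactivate the retinoblastoma protein; E-type cyclins with Cdk2 carry the cell into DNA replication; cyclin A2 serves S phase and G2; and B-type cyclins with Cdk1 drive mitosis. Transcripts of the later cyclins are kept low in resting cells by E2F and DREAM repressor complexes and accumulate from S phase on, whereas D-type cyclins are also transcribed in cells that do not divide. In the healthy adult valve most interstitial and endothelial cells are quiescent.

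Promoter sequences are shown for the mitotic genes Cdk1, Ccnb2 and Ccnb1, which had large fold changes after injury, and for Cdk2, whose fold change was small. RefSeq promoter windows (GRCm38.p6) were matched for 6 of the 10 genes, in 7 windows, since Ccnd3 has annotated starts at more than 1 place. No window was matched for Ccna2, Ccnd1, Ccnd2 or Ccne2. The windows below run from 250 bases before the start to 30 after it, 5′ to 3′ on the strand of the gene, at chr10:69352883-69353162 (minus strand) for Cdk1, chr9:70421525-70421804 (minus strand) for Ccnb2, chr13:100786457-100786736 (minus strand) for Ccnb1 and chr10:128705022-128705301 (minus strand) for Cdk2. Capitals mark matches, on either strand, to the cell cycle homology region or CHR (TTTGAA or TTCGAA), which binds DREAM and its activating counterparts, to the CCAAT box (CCAAT, or ATTGG on the other strand), which binds NF-Y, and to E2F sites (TTTCCCGC, TTTGGCGC, TTTCGCGC or TTTGCCGC).
Cdk1: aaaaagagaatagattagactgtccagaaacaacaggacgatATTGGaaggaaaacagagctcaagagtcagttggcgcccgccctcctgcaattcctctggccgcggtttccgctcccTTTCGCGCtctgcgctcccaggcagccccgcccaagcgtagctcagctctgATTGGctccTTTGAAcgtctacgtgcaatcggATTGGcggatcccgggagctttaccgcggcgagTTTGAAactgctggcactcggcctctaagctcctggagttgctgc
Ccnb2: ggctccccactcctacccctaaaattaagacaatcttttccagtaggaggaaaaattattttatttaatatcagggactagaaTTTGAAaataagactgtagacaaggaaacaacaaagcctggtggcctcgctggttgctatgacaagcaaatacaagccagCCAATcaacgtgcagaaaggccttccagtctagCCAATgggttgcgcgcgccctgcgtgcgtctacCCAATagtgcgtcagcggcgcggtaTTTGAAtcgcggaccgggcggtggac
Ccnb1: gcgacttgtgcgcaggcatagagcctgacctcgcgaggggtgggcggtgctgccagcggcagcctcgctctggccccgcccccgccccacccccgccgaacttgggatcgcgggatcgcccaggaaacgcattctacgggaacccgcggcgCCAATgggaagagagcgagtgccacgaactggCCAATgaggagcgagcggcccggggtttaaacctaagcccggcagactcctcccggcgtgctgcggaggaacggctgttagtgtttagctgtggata
Cdk2: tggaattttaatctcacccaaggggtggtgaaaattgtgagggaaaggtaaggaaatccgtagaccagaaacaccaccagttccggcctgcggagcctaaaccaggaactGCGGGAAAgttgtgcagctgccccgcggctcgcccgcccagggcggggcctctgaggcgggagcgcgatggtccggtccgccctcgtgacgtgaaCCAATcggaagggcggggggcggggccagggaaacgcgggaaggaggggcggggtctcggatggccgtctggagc

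The windows of Cdk1 and Ccnb2 each held 2 CHR matches and 3 CCAAT boxes, and none of the matches overlapped another. In Cdk1 the CHR stood at -71 and -15 from the start, the CCAAT boxes at -208, -80 and -48, and the E2F match at -131. In Ccnb2 the CHR stood at -167 and 5 and the CCAAT boxes at -87, -54 and -21. Ccnb1 held CCAAT boxes at -99 and -67 and no match to the 2 CHR forms searched, and Cdk2 a CCAAT box at -45 and an E2F match at -140. Other forms of the CHR and of E2F sites were not searched, so a window without a match may still hold such a site. The window of Ccne1 and the first window of Ccnd3 held none of these letters, and the second window of Ccnd3 held a CCAAT box at -108. A cyclic AMP response element (TGACGTCA) was searched as well and found in none of the 7 windows. Of 32817 mouse promoter windows of 300 bases, 19.2% held a CHR match, 37.4% a CCAAT box, 2.26% an E2F match and 1.79% the cyclic AMP response element. Both a CHR match and a CCAAT box stood in 7.51%, and 2 or more CCAAT boxes in 11.7%.

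**Figure D1:**
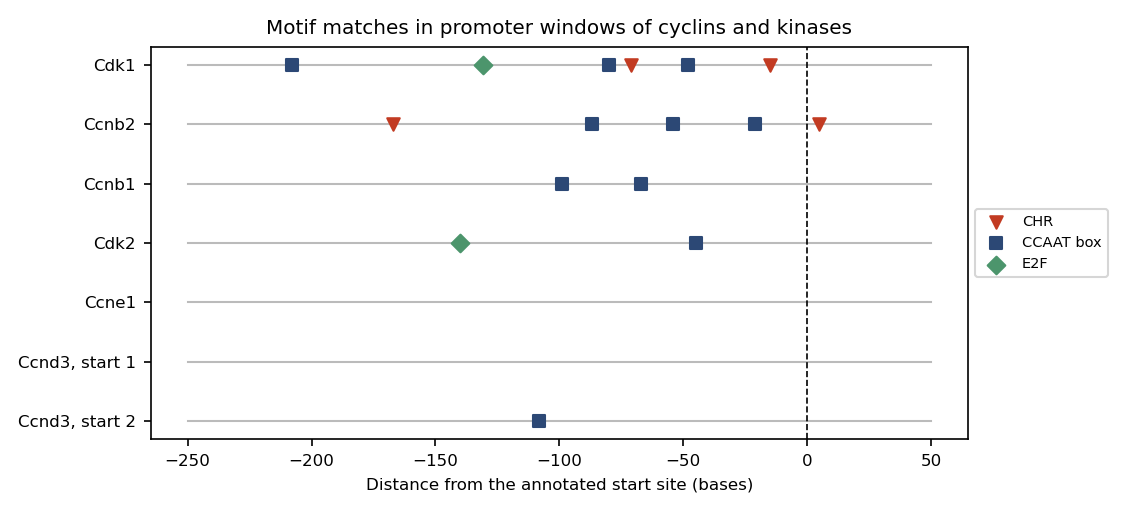
Positions of motif matches in the promoter windows of 6 genes (rows), as distance in bases from the annotated start; grey lines span the 300 bases searched and the dashed line is the start. Cdk1 and Ccnb2 hold 2 CHR matches (triangles) and 3 CCAAT boxes (squares) each, Cdk1 and Cdk2 hold an E2F match (diamonds), and Ccne1 and the first start of Ccnd3 hold none.

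Values per library are CPM, the counts scaled to library size with trimmed-mean factors. Differences were tested by quasi-likelihood in edgeR, with p-values adjusted over all genes tested. A gene is said to have risen or fallen at an adjusted p under 0.1 with a change of over 2-fold, the thresholds of the series' design text. Library totals ranged from 27124000 to 36353474 counts. Fewer genes had a count in the aging injured libraries (18642 and 19015) and in young sham 1 (18641) than in the other 8 (20411 to 22533). Among the libraries used, these also had the highest numbers in the submitters' library labels. Every aging injured library was among them, so fewer detected genes and label order cannot be told apart from that group. Their part in the comparisons with aging injured valves, and in the values of young sham 1, was not tested. All 12 interstitial cell and fibroblast markers and all 12 endothelial markers were detected in every group, as were all 12 cardiomyocyte markers, whose summed level lay between 7386 and 36827 CPM.

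Among the 10 genes, cyclin A2 and the mitotic genes had the largest fold changes after injury, and Ccnd2, Ccnd3 and Cdk2 the smallest. In aging valves 0 of the 10 passed in edgeR, against 0% of all genes in either direction, and 3 of the 10 and 1710 genes overall had an unadjusted p under 0.05. In young valves Ccna2 and Ccnb2 rose 13.3-fold and 12.8-fold, and 0 of the 10 genes fell. Over all genes tested in young valves, 0.403% rose (78 genes) and 0.0155% fell (3 genes). Ccna2 had the smallest p of all 19366 genes there, and Ccnb2 ranked 36. DESeq2 called more genes at both ages. By DESeq2, 2 of the 10 (Ccna2 and Ccnb2) rose in aging valves, against 0.372% of all genes, and 5 of the 10 (these with Ccnb1, Cdk1 and Ccne2) rose in young valves, against 1.15%. All 10 log2 fold changes were positive at both ages, as were 48.6% of all genes in aging and 51.5% in young valves.

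**Figure D2:**
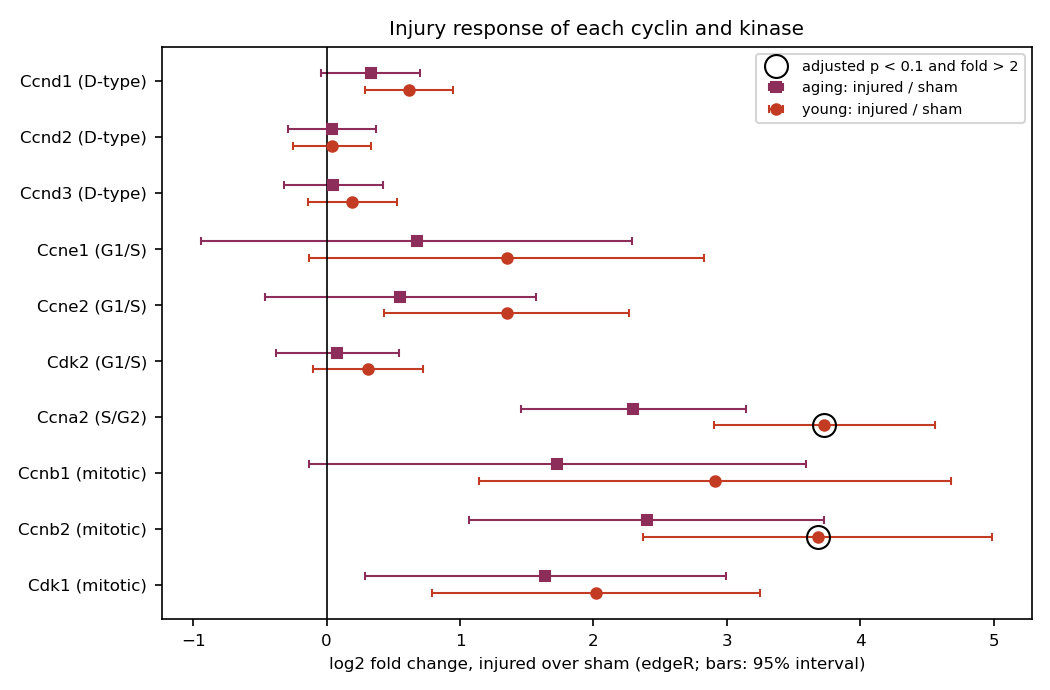
Log2 fold change of injured over sham valves for each gene (x axis, with 95% intervals from edgeR) in aging (squares) and young mice (circles); rings mark genes past the thresholds. Cyclin A2 and the mitotic genes lie furthest to the right at both ages, from 1.64 to 2.40 in aging and from 2.02 to 3.73 in young valves, and Ccnd2 and Ccnd3 lie close to 0.

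Cyclin A2, the partner of Cdk2 in S phase and of Cdk1 in G2, gave the clearest separation. Ccna2 (ENSMUSG00000027715, chromosome 3, 36564865 to 36572150 in mm10) stood at 8.88 and 13.4 CPM in aging injured valves, against 1.30, 2.41 and 3.11 CPM in aging sham valves. It stood at 15.4, 27.3 and 17.7 CPM in young injured valves, against 1.62, 1.75 and 1.14 CPM in young sham valves. At both ages every injured valve was above every sham valve, and the lowest injured value of all, 8.88 CPM, lay well above the highest sham value, 3.11 CPM. The log2 fold change was 2.30 ± 0.38 in aging valves (SE; 4.92-fold, 95% interval 2.76 to 8.78; edgeR adjusted p = 0.258) and 3.73 ± 0.38 in young valves (SE; 95% interval of the fold 7.45 to 23.6; edgeR adjusted p = 0.0054). By p in edgeR it ranked 5 of all genes in aging valves. With all libraries it did not pass there in edgeR but did in DESeq2 (2.31, DESeq2 adjusted p = 5.05e-05). The edgeR log2 fold change was 2.56 without aging injured 1, a fit that leaves 1 aging injured library. Ccna2, with 3156 counts over the 11 libraries, overlaps Exosc9 on the opposite strand, with 6430, and the sources used here do not state whether counting used the strand.

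The B-type cyclins activate Cdk1 at the entry into mitosis, and Ccnb2 was the more abundant of them after injury, by level per transcript length. Ccnb2 (ENSMUSG00000032218, chromosome 9, 70407689 to 70421554) had 6.07 and 2.78 CPM in aging injured valves, against 0.414, 1.17 and 0.920 CPM in aging sham valves. It had 6.08, 11.2 and 9.12 CPM in young injured valves, against 1.25, 0.430 and 0.355 CPM in young sham valves. The groups did not overlap at either age, and aging injured 2 lay nearest to the sham range. The log2 fold change was 2.40 ± 0.61 in aging valves (edgeR adjusted p = 0.343) and 3.68 ± 0.60 in young valves (edgeR adjusted p = 0.0354). The call in young valves was lost in edgeR fits without young injured 2 (adjusted p = 0.153), young sham 2 (0.201) or young sham 3 (0.109), and with the young libraries alone (0.155), at log2 fold changes of 3.38 to 3.66. The pseudogene Ccnb2-ps, which may share reads with it, had 42 counts over the 11 libraries, against 1321 for Ccnb2.

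Ccnb1 (ENSMUSG00000041431, chromosome 13, 100778650 to 100786570) encodes the cyclin that moves into the nucleus as mitosis begins. It had 2.95 and 2.51 CPM in aging injured valves, against 0.442, 0.586 and 1.45 CPM in aging sham valves. In young injured valves it had 2.70, 9.03 and 7.36 CPM, against 1.77, 0.614 and 0.118 CPM in young sham valves. The groups did not overlap, yet young injured 1 was near young sham 1, and the young sham values rested on 61, 20 and 3 counts. At 1.73 ± 0.84 in aging valves (edgeR adjusted p = 0.601) and 2.91 ± 0.81 in young valves (edgeR adjusted p = 0.213) Ccnb1 did not pass. Without young sham 1 its log2 fold change in young valves was 4.07 (edgeR adjusted p = 0.142).

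Cdk1 (ENSMUSG00000019942, chromosome 10, 69336635 to 69352938), the kinase of mitosis, had 1.49 and 3.54 CPM in aging injured valves, against 0.497, 0.833 and 1.10 CPM in aging sham valves. It had 5.92, 11.8 and 5.75 CPM in young injured valves, against 3.39, 0.982 and 1.38 CPM in young sham valves. No sham valve reached an injured valve of its age, but the value of young sham 1 lay between those of the aging injured libraries. The log2 fold changes, 1.64 ± 0.62 in aging (edgeR adjusted p = 0.472) and 2.02 ± 0.56 in young valves (edgeR adjusted p = 0.212), did not pass. With the effect averaged over both ages, 3 of the 10 rose, against 0.434% of all genes that rose and 0.16% that fell; by DESeq2 4 of the 10 rose, Ccnb1 among them, against 0.981%. In edgeR the 3 were Ccna2 (3.01 ± 0.27, 8.08-fold, edgeR adjusted p = 0.00364), Ccnb2 (3.04 ± 0.42, 8.22-fold, edgeR adjusted p = 0.0157) and Cdk1 (1.83 ± 0.41, 3.56-fold, edgeR adjusted p = 0.0979). The call of Cdk1 was at the threshold and was lost in limma-voom (adjusted p = 0.173), with DESeq2 size factors in the edgeR fit (0.101), with the cardiomyocyte markers as a covariate (0.101) and without any of 9 of the 11 single libraries (0.100 to 0.264).

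Young sham 1 was high for some of these genes and not for others. It held 117 counts of Cdk1, against 32 and 35 in young sham 2 and 3, and 61 counts of Ccnb1, against 20 and 3. Its Ccna2 counts were 56, against 57 and 29. The ratio of Cdk1 to Ccna2 counts was 2.09 in young sham 1, 0.561 and 1.21 in young sham 2 and 3, and between 0.168 and 0.432 in the other 8 libraries. Removing that library moved the log2 fold change of Cdk1 in young valves to 2.73 and of Ccnb2 to 4.47 (edgeR adjusted p = 0.142 and 0.0394), and left Ccna2 at 3.79 (0.0242).

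**Figure D3:**
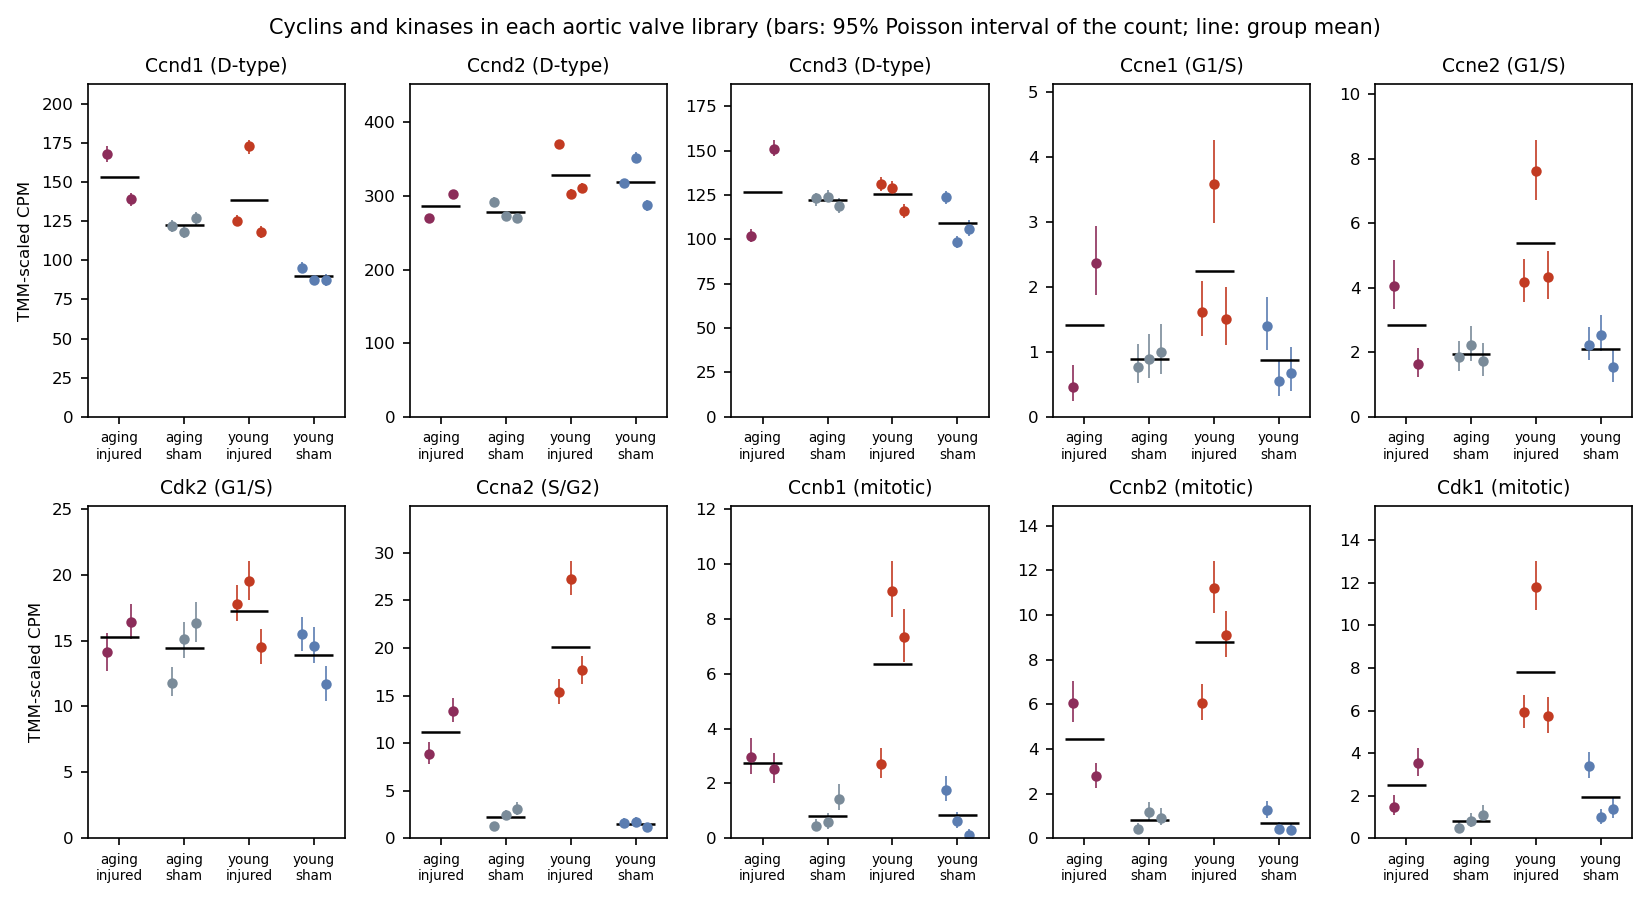
Level of each cyclin and kinase in every library, in CPM (y axis, linear and starting at 0), by group; points are single valves, thin bars the exact 95% Poisson interval of the count and black lines group means. Ccna2, Ccnb1, Ccnb2, Cdk1 and Ccnd1 are higher in every injured valve than in every sham valve of the same age, whereas Ccnd2, Ccnd3 and Cdk2 overlap at both ages.

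The E-type cyclins, which start DNA replication with Cdk2, lay between these extremes and did not pass at either age. Ccne2 (ENSMUSG00000028212, chromosome 4, 11191351 to 11204779) had 4.05 and 1.64 CPM in aging injured valves, against 1.85, 2.22 and 1.73 CPM in aging sham valves. It had 4.19, 7.61 and 4.34 CPM in young injured valves, against 2.23, 2.55 and 1.54 CPM in young sham valves. Aging injured 2 was below every aging sham library, while in young valves the groups did not overlap. The log2 fold change of Ccne2 was 0.55 ± 0.46 in aging valves (edgeR adjusted p = 0.808) and 1.35 ± 0.42 in young valves (edgeR adjusted p = 0.282; DESeq2 adjusted p = 0.0676). Ccne2 overlaps Ints8 on the opposite strand, which had 11382 counts over the 11 libraries against 1118 for Ccne2.

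Ccne1 (ENSMUSG00000002068, chromosome 7, 38097984 to 38107534) had 0.462 and 2.37 CPM in aging injured valves, against 0.773, 0.894 and 0.991 CPM in aging sham valves. It had 1.62, 3.58 and 1.51 CPM in young injured valves, against 1.39, 0.552 and 0.670 CPM in young sham valves. The aging injured libraries lay on either side of the sham range, and young injured 3 was barely above young sham 1, with 48 counts in each. The log2 fold change of Ccne1 was 0.68 ± 0.74 in aging (edgeR adjusted p = 0.868) and 1.35 ± 0.67 in young valves (edgeR adjusted p = 0.590).

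Cdk2 (ENSMUSG00000025358, chromosome 10, 128697939 to 128705051), the kinase that both E-type cyclins and cyclin A2 bind, had 14.1 and 16.4 CPM in aging injured valves, against 11.8, 15.1 and 16.3 CPM in aging sham valves. It had 17.8, 19.5 and 14.5 CPM in young injured valves, against 15.5, 14.6 and 11.7 CPM in young sham valves. The groups overlapped at both ages. Its fold change was 1.06 in aging (95% interval 0.770 to 1.46) and 1.24 in young valves (95% interval 0.932 to 1.65).

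Of the D-type cyclins, Ccnd1 alone was higher in every injured valve than in every sham valve of its age. Ccnd1 (ENSMUSG00000070348, chromosome 7, 144929931 to 144939869), the cyclin induced by many growth factors, had 168 and 139 CPM in aging injured valves, against 122, 118 and 127 CPM in aging sham valves. It had 125, 173 and 118 CPM in young injured valves, against 95.4, 87.3 and 87.5 CPM in young sham valves. The separation was narrow beside that of cyclin A2. The fold change of Ccnd1 was 1.25 in aging (95% interval 0.971 to 1.62; edgeR adjusted p = 0.619) and 1.54 in young valves (95% interval 1.22 to 1.94; edgeR adjusted p = 0.153), and neither passed. Averaged over age it was 1.39 (95% interval 1.17 to 1.65; edgeR adjusted p = 0.118). By DESeq2, Ccnd1 in young valves had an adjusted p of 0.0221 at a log2 fold change of 0.61. It thus met the threshold on p there and missed only the 2-fold threshold. Ccnd1 overlaps Oraov1 on the opposite strand, whose 6553 counts over the libraries were few beside the 44110 of Ccnd1.

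Ccnd2 and Ccnd3, its paralogs, which serve the same step in G1, showed overlapping groups. Ccnd2 (ENSMUSG00000000184, chromosome 6, 127125162 to 127152193) had 270 and 302 CPM in aging injured valves, against 292, 273 and 270 CPM in aging sham valves. It had 370, 303 and 311 CPM in young injured valves, against 317, 352 and 287 CPM in young sham valves. Its fold change was 1.03 at each age, with 95% intervals of 0.818 to 1.29 in aging and 0.840 to 1.26 in young valves, so a change of 2-fold lay outside both intervals. Ccnd3 (ENSMUSG00000034165, chromosome 17, 47505051 to 47599691) had 102 and 151 CPM in aging injured valves, against 123, 124 and 119 CPM in aging sham valves. It had 131, 129 and 116 CPM in young injured valves, against 124, 98.3 and 106 CPM in young sham valves. The aging injured libraries again lay on either side of the sham range, and the fold changes of Ccnd3 were 1.04 (95% interval 0.802 to 1.34) in aging and 1.14 (95% interval 0.908 to 1.44) in young valves. Antisense genes lie over Ccnd2 and the gene Bysl over Ccnd3, each with fewer counts than the cyclin.

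Every injured library exceeded every sham library for 5 of the 10 genes in aging valves (Ccnd1, Ccna2, Ccnb1, Ccnb2 and Cdk1), against 11.1% of all genes tested. In young valves it did so for 7 of the 10, these with Ccne1 and Ccne2, against 9.54%. The median log2 fold change in aging valves was 0.05 for the D-type cyclins, 0.55 for the E-type cyclins with Cdk2, 2.30 for Ccna2 and 1.73 for the mitotic genes, beside -0.01 over all genes. In young valves these medians were 0.19, 1.35, 3.73 and 2.91, beside 0.01 over all genes. The order was the same at both ages, with the cyclins of the later phases above those of G1. The aging injured valves disagreed within several genes, since Ccnb2 and Ccne2 were higher in library 1 and Ccna2, Cdk1, Ccne1 and Ccnd3 in library 2.

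Levels can be compared between genes on the deposited RPKM values, which account for transcript length. On that scale the D-type cyclins were the 3 most abundant of the 10 genes and Cdk2 the fourth in every group. Ccnd1 averaged 44.1 ± 7.08 RPKM in aging injured (SD, n = 2), 35.7 ± 1.23 in aging sham, 40.8 ± 9.14 in young injured and 25.6 ± 0.817 RPKM in young sham valves (SD, n = 3 each), and Ccnd2 averaged 33.4 ± 1.79, 33.1 ± 1.21, 39.3 ± 5.13 and 36.9 ± 4.12 RPKM in the same groups. Ccnd1 ranked above Ccnd2 in 3 of the 4 groups, and in young injured valves their averages differed by less than their spread. Ccnb2 and Ccna2 were the fifth and the sixth in both injured groups, at 3.18 ± 1.74 and 2.99 ± 0.789 RPKM in aging (n = 2) and 6.43 ± 1.86 and 5.56 ± 1.77 RPKM in young injured valves (n = 3), and differed by less than their spread. In sham valves the 6 genes after Cdk2 all averaged under 1 RPKM. A low value of 0.133 RPKM was repeated across many genes, and Ccnb1 stood at it in aging sham 1 and young sham 3, where it had 16 and 3 counts.

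The D-type cyclins made up 91.2% and 92.4% of the summed RPKM of the 8 cyclins in aging injured valves, against 98.1%, 96.8% and 96.7% in aging sham valves. Their share was 89.5%, 82.4% and 84.8% in young injured valves, against 96.3%, 97.6% and 98.0% in young sham valves. The share was lower in every injured valve than in every sham valve, and the D-type sum itself was not lower, at 94.2 and 92.3 RPKM in aging injured, 83.3 to 85.3 in aging sham, 84.3 to 104 in young injured and 71.7 to 79.1 RPKM in young sham valves. The share of Ccnb1 and Ccnb2 together was 5.03% and 2.59% in aging injured valves, against 0.496% to 1.21% in aging sham valves, and 4.72% to 8.45% in young injured valves, against 0.526% to 1.63% in young sham valves. The ratio of Cdk1 to Cdk2 RPKM was 0.0747 and 0.152 in aging injured valves, against 0.0296 to 0.0475 in aging sham valves. It was 0.235, 0.426 and 0.280 in young injured valves, against 0.155, 0.0475 and 0.0832 in young sham valves. Cdk2 was thus the more abundant kinase transcript in all 11 valves.

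**Figure D4:**
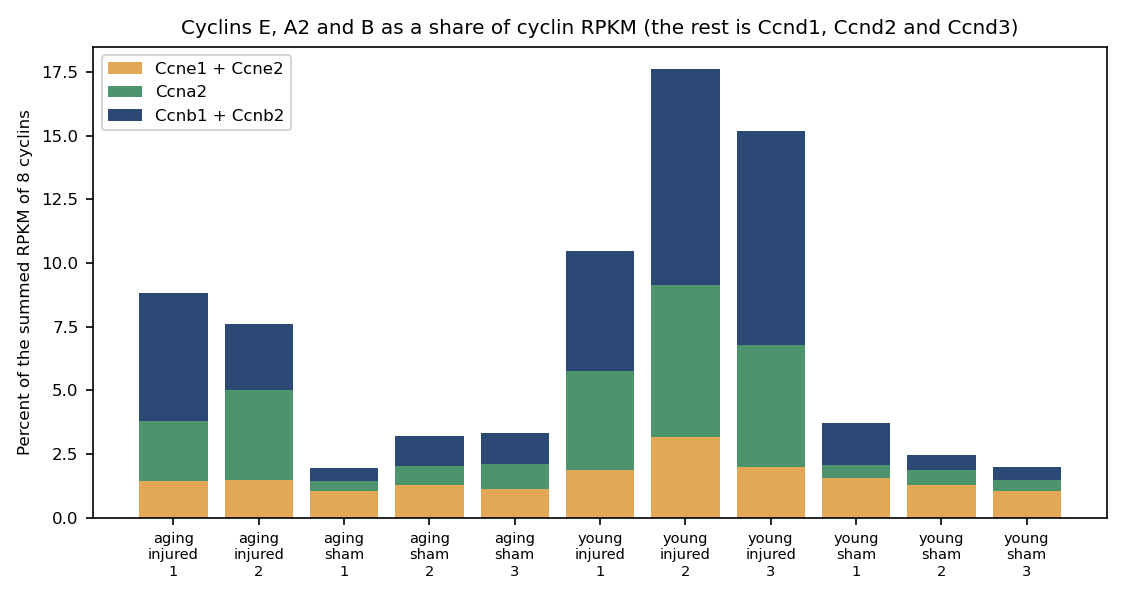
Share of the summed RPKM of 8 cyclins (y axis, percent) taken by the E-type cyclins, cyclin A2 and the B-type cyclins in each library; the remainder is D-type. The stacked bars of every injured valve are taller than those of every sham valve, with the D-type remainder between 82.4% and 92.4% in injured and between 96.3% and 98.1% in sham valves.

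Whether the injury response differed between ages was tested by the interaction, the aging response minus the young response. Of the 10 values 0 were positive, beside 45.7% of all genes. That of Ccnd2 lay close to 0 (ratio of fold changes 0.998), and the values of Ccnd2, Ccnd3, Ccne1 and Cdk1 were positive under some other settings. The interaction of Ccna2 was -1.43 ± 0.52 on the log2 scale (95% interval -2.58 to -0.28; edgeR adjusted p = 0.567). That of Ccnb2 was -1.27 ± 0.83 and of Ccnb1 -1.18 ± 1.16, and that of Cdk1 was -0.38 ± 0.83, with edgeR adjusted p-values of 0.757, 0.856 and 0.955. None passed, against 0% of all genes, and 1 of the 10 (Ccna2) and 1523 genes overall had an unadjusted p under 0.05. The 95% interval of the interaction, as a ratio of fold changes, ran from 0.167 to 0.824 for Ccna2 and from 0.076 to 2.58 for Ccnb1, so with 2 aging injured valves a response of Ccnb1 either far smaller or larger than in young valves lay within the error.

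Between aging and young valves of the same surgery, 0 of the 10 genes passed, against 0.062% of all genes in injured valves and 0.0258% in sham valves. In injured valves Cdk1 had 1.49 and 3.54 CPM in aging mice, against 5.92, 11.8 and 5.75 CPM in young mice, with no overlap, at a log2 fold change of -1.63 ± 0.64 (edgeR adjusted p = 0.339). Ccna2 was likewise lower in both aging injured valves than in the young injured ones, at -0.85 ± 0.38 (edgeR adjusted p = 0.395). These 2 genes had an unadjusted p under 0.05, as did 2425 genes overall. In sham valves Ccnd1 had 122, 118 and 127 CPM in aging mice, against 95.4, 87.3 and 87.5 CPM in young mice, at 0.44 ± 0.15 (edgeR adjusted p = 0.448). Cdk1 stood at -1.25 ± 0.57 in sham valves (edgeR adjusted p = 0.543) and at -0.55 without young sham 1. Ccna2 had higher values in aging sham 2 and 3 than in any young sham valve, but the difference, 0.58 ± 0.36, did not pass (edgeR adjusted p = 0.657). Since both injury comparisons and both age comparisons draw on the same 4 groups, their values are not independent of each other.

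Other genes of the same pathway were taken from lists of regulators and targets. Among 15 tested cyclins of other kinds 1 rose, Ccnf, an F-box cyclin of G2, at 1.68 ± 0.51 in aging (edgeR adjusted p = 0.399) and 2.72 ± 0.49 in young valves (edgeR adjusted p = 0.0506). The list median was -0.14 in aging and -0.04 in young valves. Of 12 other cyclin-dependent kinases and subunits 0 rose or fell. Cdk4, the kinase of the D-type cyclins, had log2 fold changes of 0.09 ± 0.16 in aging and 0.49 ± 0.14 in young valves (edgeR adjusted p = 0.943 and 0.248), Cks1b, a small subunit of the kinases, 0.25 ± 0.33 and 0.89 ± 0.30, and Cdk6 0.13 ± 0.15 and 0.24 ± 0.13.

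Of the 16 replication licensing and fork genes, which E2F controls, 0 passed in aging valves with 13 positive (median 0.44), beside 48.6% of all genes. Orc1, a subunit of the origin recognition complex, had the smallest p of the list in aging valves and is named after its values were seen. It had 0 counts in both aging injured valves, where a count of 0 allows up to 3, against 0.138, 0.278 and 0.425 CPM in aging sham valves, and did not pass (edgeR adjusted p = 0.386). Fewer genes had a count in those aging injured libraries, and the part of this in the 0 counts of Orc1 was not tested. In young injured valves Orc1 had 0.486, 1.82 and 0.817 CPM, against 0.232, 0.337 and 0.0394 CPM in young sham valves (edgeR adjusted p = 0.509). In young valves all 16 were positive (median 1.07), beside 51.5% of all genes, and 4 rose, the helicase subunits Mcm5, Mcm2, Mcm3 and Mcm7. These stood at 0.82 ± 0.31, 0.33 ± 0.27, 0.62 ± 0.21 and 0.10 ± 0.24 in aging valves. In young valves they rose by 2.03 ± 0.29, 1.48 ± 0.24, 1.04 ± 0.19 and 1.00 ± 0.21 on the log2 scale (edgeR adjusted p = 0.0216, 0.0385, 0.0590 and 0.0978). Of 20 RB, E2F and DREAM genes 0 passed at either age, with medians of -0.02 in aging and 0.32 in young valves. Averaged over age 1 of them rose, E2f8, a repressor of the E2F family, at 1.29 ± 0.28 (edgeR adjusted p = 0.0880). The activators E2f1 and E2f2 stood at 0.76 ± 0.46 and 0.94 ± 0.57 in aging and at 2.02 ± 0.44 and 2.42 ± 0.55 in young valves (edgeR adjusted p = 0.101 and 0.117 in young valves).

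Regulators of Cdk1 and of the destruction of mitotic cyclins included further genes that rose. Of 22 cyclin degradation genes 0 passed in aging valves and 1 rose in young valves. This was Ube2c, the ubiquitin-conjugating enzyme of the anaphase-promoting complex, at 2.27 ± 0.46 in aging (edgeR adjusted p = 0.259) and 3.85 ± 0.46 in young valves (14.4-fold, edgeR adjusted p = 0.00843). Averaged over age Ube2c and Cdc20, the activator of that complex, rose (3.06 ± 0.32 and 2.06 ± 0.35, edgeR adjusted p = 0.00391 and 0.0363), and the list median was 0.04. Of 9 genes that set the phosphorylation of the kinases 0 passed at either single age. All 9 were positive at both ages, beside 48.6% of all genes in aging and 51.5% in young valves. Averaged over age the mitotic kinases Aurka and Plk1 rose (2.18 ± 0.42 and 1.98 ± 0.43, edgeR adjusted p = 0.0657 and 0.0871). The proliferation marks Top2a and Mki67 stood at 1.68 ± 0.35 and 1.99 ± 0.41 in aging valves (edgeR adjusted p = 0.259 for both) and rose in young valves (3.30 ± 0.34 and 2.74 ± 0.39, edgeR adjusted p = 0.0054 and 0.0216).

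The 7 inhibitors of cyclin-dependent kinases did not pass in either direction, with a median of 0.18 at both ages. At each age 2 of them had an unadjusted p under 0.05, beside 1710 of all 19366 genes in aging and 1780 in young valves. In aging valves the 2 inhibitors were Cdkn2d and Cdkn2a, further inhibitors of Cdk4 and Cdk6. Cdkn2a had 3.94 and 5.17 CPM in aging injured valves, against 1.88, 2.00 and 3.08 CPM in aging sham valves, and 1.57, 1.19 and 0.943 CPM in young injured valves, against 0.841, 0.644 and 0.828 CPM in young sham valves. It was higher in every injured than in every sham valve of its age, with log2 fold changes of 0.97 ± 0.43 in aging and 0.68 ± 0.41 in young valves (edgeR adjusted p = 0.555 and 0.674). Cdkn2d stood at 0.62 ± 0.18 in aging and 0.18 ± 0.16 in young valves (edgeR adjusted p = 0.386 and 0.809). Cdkn1a, the p53 target p21, stood at 0.09 ± 0.21 in aging and 0.41 ± 0.18 in young valves (edgeR adjusted p = 0.953 and 0.533). Cdkn1b, or p27, stood at -0.02 ± 0.23 and -0.18 ± 0.20 (edgeR adjusted p = 0.993 and 0.863), and Cdkn2c, an inhibitor of Cdk4 and Cdk6, at 0.18 ± 0.27 and 0.71 ± 0.24 (edgeR adjusted p = 0.928 and 0.356). Of 8 cell cycle exit genes and p53 targets 0 passed, with medians of -0.08 in aging and -0.09 in young valves. The smallest p averaged over age belonged to Btg2, an antiproliferative gene, at -0.59 ± 0.36 in aging and -0.30 ± 0.31 in young valves. It was followed by Gadd45g, a stress-induced gene, at -0.62 ± 0.34 and -0.15 ± 0.30, and Trp53, which encodes p53, at 0.19 ± 0.22 and 0.26 ± 0.20.

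**Figure D5:**
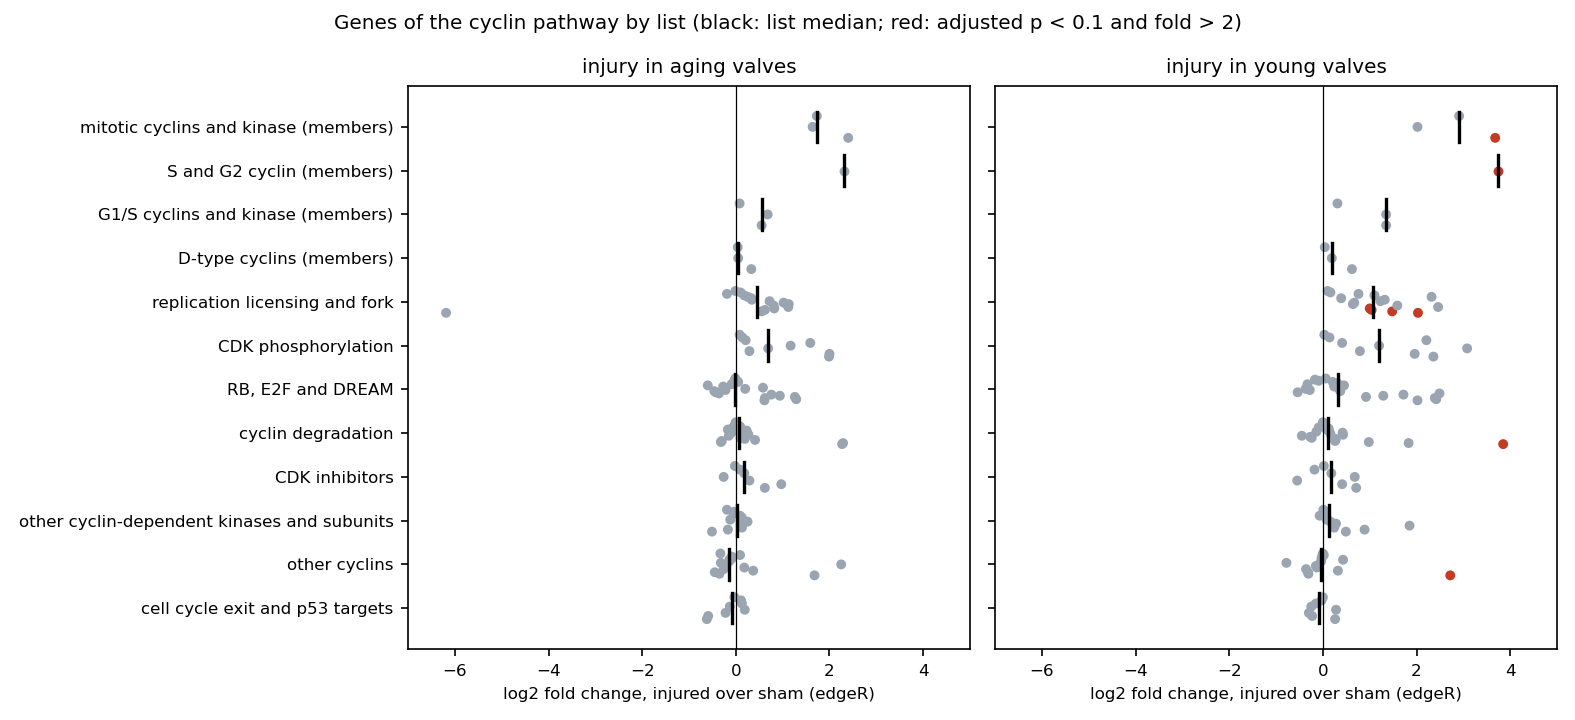
Log2 fold change of injured over sham valves (x axis) for the 10 genes in their classes and for 8 further lists, in aging (left) and young valves (right); each point is a gene, black bars are list medians and red points passed the thresholds. Mitotic genes, cyclin A2 and genes of kinase phosphorylation sit to the right of 0 at both ages, as do all 16 replication genes in young and 13 of 16 in aging valves, and kinase inhibitors, other cyclins and exit genes sit around it. The point furthest left in the aging panel is Orc1, at 0 counts in both aging injured valves.

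Over the 11 libraries the genes most like Ccna2, Ccnb1, Cdk1, Ccne1, Ccnd1, Ccnd2 and Ccnd3 were found by Pearson's r of log2 CPM. The search ran among 14658 genes, as a description in which the libraries share their 4 groups. It was not made for Ccnb2, Ccne2 and Cdk2. Ccna2 was most like Kif20a, a mitotic kinesin (r = 0.99), Ccnf (0.98) and Ube2c (0.98). Ccnb1 was most like Dlgap5, a spindle protein gene (0.98), the kinesin Kif11 (0.97) and Foxm1, a transcription factor of G2 genes (0.97). Cdk1 was most like the kinesin Kifc1 (0.98) and then the collagen gene Col1a2 and the procollagen protease Adamts2 (both 0.96). The G1 cyclins searched kept other company. Cttn, a cortical actin regulator, was nearest to Ccne1 (0.95), Ap1s1 to Ccnd1 (0.95), Ccnl2 to Ccnd2 (0.87) and Copz2 to Ccnd3 (0.94).

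Marker levels of cell types in the valve were compared with the same groups. The summed CPM of the 12 interstitial cell and fibroblast markers was 17847 to 21562 in aging injured, against 15704 to 18230 in aging sham valves, and 23217 to 28564 in young injured, against 16682 to 20719 in young sham valves. For the 12 monocyte and macrophage markers it was 949 to 1011 in aging injured, against 648 to 914 in aging sham valves, and 633 to 1105 in young injured, against 609 to 787 in young sham valves. For the 12 endothelial markers it was 1217 to 1242 in aging injured, against 893 to 1525 in aging sham valves, and 600 to 1278 in young injured, against 940 to 1403 in young sham valves. For the 8 adipocyte markers it was 329 and 862 in aging injured, against 192 to 293 in aging sham valves. In young valves it was 151 to 478 in injured, against 290 to 523 in sham valves. All 8 adipocyte markers had positive log2 fold changes in aging valves (median 1.75), and 6 of 8 did in young valves (median 0.7). For the 8 mesothelial markers the sum was 81.3 and 90.8 CPM in aging injured, against 134 to 245 in aging sham valves. In young valves it was 39.9 to 142 in injured, against 22.4 to 76.4 in sham valves. Of these markers 0 of 8 were positive in aging valves (median -1.04) and 8 of 8 in young valves (median 0.71). The 8 Schwann cell markers summed to 324 and 332 in aging injured, against 352 to 358 in aging sham valves, and to 331 to 349 in young injured, against 361 to 457 in young sham valves. The 8 smooth muscle markers summed to 17892 and 20113 in aging injured, against 20591 to 24769 in aging sham valves, and to 6096 to 14804 in young injured, against 7739 to 18616 in young sham valves. Summed levels did not overlap between injured and sham valves for macrophage, neutrophil and adipocyte (higher in injured) and mesothelial, smooth muscle and Schwann cell markers (lower in injured) in aging valves, nor for interstitial (higher) and Schwann cell markers (lower) in young valves. The smooth muscle markers had medians of -0.29 in aging and -0.24 in young valves (2 and 0 of 8 positive), and the 12 cardiomyocyte markers of 0.01 and -0.66 (7 and 1 of 12 positive). The cardiomyocyte markers summed to 11860 and 13670 CPM in aging injured, against 7386 to 21344 in aging sham valves. They summed to 9361, 8435 and 36827 CPM in young injured, against 19620 to 35336 in young sham valves. None of the markers in these lists passed in aging valves, and 1 interstitial marker rose in young valves. Neutrophil and lymphocyte markers summed to at most 24.3 CPM in any library, with 4 of 12 neutrophil and 2 of 12 lymphocyte markers at 0 in both aging injured valves. The part of these cell types in the changes of Ccna2, the B-type cyclins and Cdk1 was not tested. With the mean of the cardiomyocyte markers as a covariate, the log2 fold change in young valves was 3.51 for Ccna2 and 3.45 for Ccnb2, both past the thresholds (edgeR adjusted p = 0.00865 and 0.0395). It was 2.79 for Ccnb1 and 1.68 for Cdk1, which did not pass (edgeR adjusted p = 0.258 and 0.309). Averaged over age, Cdk1 lost its call with this covariate (1.73, edgeR adjusted p = 0.101). Markers of the other cell types were not used as covariates.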

How the data were processed

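The deposited files hold 1 table of raw counts and 1 of RPKM values. TopHat2 2.1.0 and the mm10 build are named in the submitters' processing notes. How reads were assigned to genes, and whether by strand, is not given in the sources used. The authors deposited counts for 46983 genes with no normalization, and RPKM (scaled to library size and gene length) for 13526 genes; 1 library column matched no sample label and was not used. RPKM served only to compare levels between genes.

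Counts of genes kept by filterByExpr (minimum count 10) were fitted with edgeR 4.0.16 in R 4.3.3, with TMM scaling, 4 group means over 11 libraries and a common biological coefficient of variation of 0.377. Standard errors are the log2 fold change over the root of F. P-values were adjusted by Benjamini-Hochberg over all 19366 genes. DESeq2 1.42.0 and limma 3.58.1 (voom) were alternatives. The tests were run on simulated data first, where a limit on false calls was set for edgeR and limma-voom but not for DESeq2. Poisson intervals cover counting error only.

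The 10 genes and all lists were chosen with earlier results of these data known. Pathway genes are named where called, else as the 3 with the smallest p averaged over age, with Cdkn1a, Cdkn1b and Cdkn2c in any case; Orc1 was added after its values were seen. Marker lists and promoter motifs are descriptions.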

Additional observations from a re-analysis of the deposited data

How the results depend on the processing

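Of 1120 recomputed values for the 10 genes, 1044 kept their direction and their side of the thresholds. They include genes that were not called and fits without a library of a group outside the comparison, which could hardly move the fold change. Ccna2 in young valves, for example, stayed at 3.72 to 3.73 without any single aging library. The count therefore says little about how stable the calls were. Ccna2 kept its call in young valves and averaged over age under every setting tried. Of the 10 genes, 0 were called in aging valves, 2 with DESeq2 and 0 to 1 with each library left out; 2 were called in young valves, 5 with DESeq2, 1 with only the groups compared, and 1 to 2 with each library left out; and averaged over age 2 to 4 with each library left out. Over all genes DESeq2 called 329 in aging and 268 in young valves, 402 averaged over age, 174 for the interaction, 599 for age in injured and 200 for age in sham valves. With only the groups compared there were 11 in young valves, 0 for age in injured and 13 for age in sham valves. Without the low count filter there were 1 in aging valves, 38 for age in injured and 14 for age in sham valves. Limma-voom called 73 averaged over age and 2 for age in sham valves, and the cardiomyocyte covariate left 2 there. With each library left out the counts ran from 0 to 261 (without aging injured 1) in aging valves, 16 (without young injured 2) to 447 (without young injured 3) in young valves, 38 to 284 averaged over age, 0 to 0 for the interaction, 1 to 10 for age in sham and 3 to 429 for age in injured valves. The cause of these moves was not tested.

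Values that changed sign were mostly near 0. With a library left out, injury gave Ccnd2 -0.048 to 0.11 in aging and -0.054 to 0.12 in young valves and -0.0076 to 0.079 averaged over age, Ccnd3 -0.26 to 0.30 in aging valves and -0.033 to 0.25 averaged, and in aging valves Ccne1 -0.94 to 1.41, Ccne2 -0.25 to 1.06 and Cdk2 -0.04 to 0.18. The interaction ran from -0.09 to 0.092 for Ccnd2, -0.46 to 0.12 for Ccnd3, -2.29 to 0.065 for Ccne1 and -1.14 to 0.12 for Cdk1. It was 0.025 for Ccnd2 with DESeq2 or its size factors, 0.0057 without the filter and 0.0095 with the cardiomyocyte covariate, which gave Cdk1 0.11. Age in sham valves gave Ccne1 -0.22 to 0.53, Ccne2 -0.30 to 0.035, Cdk2 -0.062 to 0.17, Ccnb1 -0.71 to 1.11 and Ccnb2 -0.059 to 1.07 with a library left out; with the cardiomyocyte covariate Ccne1 was -0.38, Cdk2 -0.22 and Ccnb2 -0.28, and Ccnb1 was 0.28 with limma-voom and 0.011 with library totals alone. Age in injured valves gave Ccnd1 -0.0049 to 0.35, Ccnd3 -0.30 to 0.27 and Ccne1 -2.27 to 0.075 with a library left out, and Ccnd3 -0.0088 with limma-voom and -0.024 with library totals alone.

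Deviations of same-numbered libraries from their group means correlated at -0.03 and -0.06 in aging and 0.08, -0.01 and 0.25 in young valves. Of the young libraries, 2 of 3 injured and 1 of 3 sham correlated best with their own number. Deviations of the 2 aging injured libraries mirror each other, so their 2 values are not separate. With 2 or 3 libraries per group, these values cannot show whether replicate numbers in the titles pair the libraries. With the replicate number as a block, 60 genes were called averaged over age and 4 for age in injured valves, and Cdk1 lost its call averaged over age (1.73, edgeR adjusted p = 0.243); Ccnd2 was -0.0057 for injury in aging valves, Ccne1 -0.037 for age in sham valves and Ccnd3 -0.019 for age in injured valves.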
